A study of Mus musculus with 17 samples.

Results

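Imprinted genes whose control region is methylated in the egg were followed in spermatogonial stem and progenitor cells (SSCs) and in 3 kinds of multipotent or pluripotent cells. The 10 genes were Peg3, Snrpn, Mest, Peg10, Plagl1, Zrsr1, Impact, Nnat, Sgce and Igf2r, chosen by name out of 23891 gene symbols with an analysed RefSeq transcript. Each gene was read from 1 transcript, the one with the highest mean FPKM (fragments of a transcript scaled to its length and to the library) over all 17 RNA samples. All 10 genes had a usable estimate in each of the 17 samples, so no member was lost to a filter.

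RNA-seq was made from total RNA of mouse cells. The 4 SSC lines came from testes of mice older than 3 months, with 2 lines of strain Oct4-GFP, 1 of C57Bl/6J and 1 of 129mix. The 6 MASC lines (multipotent adult spermatogonial-derived stem cells) arise in SSC cultures and grow as colonies like embryonic stem cells; 2 were Oct4-GFP, 2 129mix and 2 Gt(ROSA26)Sor-lacZ. They were set beside 2 embryonic stem cell (ESC) lines, 1 Oct4-GFP and 1 129mix, and 2 induced pluripotent stem (iPS) lines of 129mix background, which were made from E13.5 embryonic fibroblasts carrying tetO-4F2A and H3.3B-HA with 2 µg/ml doxycycline. A further pair of samples were C57Bl/6J haematopoietic stem cell (HSC) cultures on endothelial feeders, and 1 sample was 129mix E13.5 embryonic fibroblasts (MEFs) carrying H3.3B-HA. MEF feeders supported all but the HSC and MEF cultures, and MASC colonies were picked by hand. Per the paper, SSC medium held glial cell-derived neurotrophic factor, fibroblast growth factor and epidermal growth factor. SSCs were also plated on gelatin before harvest to remove feeder cells. MASCs, ESCs and iPS cells grew in ESC medium with leukaemia inhibitory factor. In comparisons with SSCs, cell type therefore cannot be told apart from medium and harvest. Separate donor animals are not named for the lines of a group, so the tests measure the spread between lines. The paper says that the MASC and ESC lines were subcloned. Whether the 2 MASC lines of a strain share 1 derivation is not stated, so strain and clone of origin cannot be told apart.

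An imprinted gene is transcribed mainly from the copy inherited from 1 parent, and the choice is set by DNA methylation that the egg or the sperm lays down at a control region. Where the egg methylates the region, the maternal copy of the promoter is usually silent and the gene is read from the paternal copy. That holds for 9 of the 10 genes. Igf2r is the exception, because its methylated region is the promoter of the antisense transcript Airn inside the gene, and Igf2r itself is read from the maternal copy. In male germ cells both copies of these regions carry the unmethylated paternal state. The FPKM values do not separate the parental copies, so what follows is about the level of each gene and not about its imprint.

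Stretches before the starts of 5 of the genes are shown because the results turn on these genes and because such promoters can be bound, when methylated, by ZFP57, a zinc-finger protein that keeps imprints in place. The hexamer it reads, TGCCGC or its reverse complement GCGGCA, was searched on both strands and is in capitals where it occurs. The sequences are read from genome build mm9, 5′ to 3′ on the strand of the gene (of Peg10 for the gap it shares with Sgce), and end at the base before the annotated start. Snrpn runs from chr7:67150043-67150242 on the minus strand with 6 CpG dinucleotides, Mest from chr6:30687850-30688049 on the plus strand with 12, and the 101 bases of chr6:4697205-4697305, with 13, are the whole gap between the divergent starts of Sgce on the minus strand and Peg10 on the plus strand. The Nnat stretch, chr2:157385744-157385813 on the plus strand with 4 CpG dinucleotides, was limited to 70 bases where it meets an exon of the opposite gene Blcap.
Snrpn: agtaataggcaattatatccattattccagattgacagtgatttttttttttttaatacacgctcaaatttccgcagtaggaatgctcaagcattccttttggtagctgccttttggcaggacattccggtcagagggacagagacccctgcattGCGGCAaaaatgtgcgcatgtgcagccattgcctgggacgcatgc
Mest: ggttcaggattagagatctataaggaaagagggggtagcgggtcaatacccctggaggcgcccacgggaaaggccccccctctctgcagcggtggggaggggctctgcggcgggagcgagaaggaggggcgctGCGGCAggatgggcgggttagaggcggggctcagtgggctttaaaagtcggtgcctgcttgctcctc
Sgce-Peg10 gap: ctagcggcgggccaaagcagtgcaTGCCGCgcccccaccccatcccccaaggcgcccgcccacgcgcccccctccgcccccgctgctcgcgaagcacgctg
Nnat: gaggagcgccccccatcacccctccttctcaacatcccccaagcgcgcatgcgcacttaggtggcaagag
The hexamer occurred in the first 3 and not in the Nnat stretch. In windows of 200 bases upstream of the start it was present for 5 of the 10 genes (Snrpn, Mest, Peg10, Plagl1 and Sgce, of which Peg10 and Sgce share the gap), and in 9.61% of the same windows of 23246 start sites. In windows of 101 bases it was present in 5.91%. A match describes the letters and is not evidence of binding.

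The labelled cell types were checked first. The summed FPKM of 10 SSC markers was 651 to 763 in the SSC lines and at most 171 in every other sample, and that of 10 pluripotency markers was 3296 to 6593 in MASCs, ESCs and iPS cells against 28.6 to 188 in SSCs. The highest SSC value belonged to line 1, with Pou5f1 at 94.5 FPKM against 1.37 to 5.42 in the other SSC lines. Of the SSC markers, Etv5 did not separate the types, at 11.4 to 123 FPKM in SSCs and 81.1 to 128 FPKM in MASCs. The 12 fibroblast markers, summed and set against MEFs, stood at 18.6% of the MEF level in MASC line 1, 16.6% in SSC line 3, 7.1% in SSC line 1 and 6.84% in ESC line 1, and at 0.351 to 2.62% in the other 10 SSC, MASC, ESC and iPS lines. Single markers gave unlike shares: in MASC line 1 Dcn had 81.2 FPKM against 109 in MEFs, and Postn 35.4 against 694. The amounts taken from the summed share below are therefore rough. Blood markers summed to 17.8 to 26.1 FPKM in SSCs and 34.6 to 110.1 FPKM in MASCs, of which Laptm5 was at most 3.88 FPKM in SSCs and 16.8 to 94.5 FPKM in MASCs. Testis somatic markers summed to 23.6 to 32.1 FPKM in SSCs and 18.2 to 89.8 FPKM in MASCs. Of these, Wt1 was 8.17 to 20.9 FPKM in SSCs and 0.797 to 4.41 FPKM in MASCs. Acta2 went the other way, at 0.948 to 9.15 FPKM in SSCs and 11.5 to 79.5 FPKM in MASCs. MEFs had 1150 FPKM of Acta2. The part of blood and testis somatic RNA in the MASC and SSC differences was not tested. In whole cultures, fewer cells of a type and less RNA per cell cannot be told apart. Read counts were not used here, so the depth behind a value is unknown. Coverage per FPKM, which follows depth, had a median over transcripts of 1.26 to 3.23 in the samples.

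Between SSCs and MASCs, 3 of the 10 genes passed the test, all higher in MASCs: Snrpn, Impact and Peg10. The question here is how the SSC lines differ from the MASC lines. The labels do not say whether any MASC line arose from 1 of these SSC lines. A gene was called where limma gave a Benjamini-Hochberg adjusted p under 0.05 over 32661 transcripts and a difference of at least 1 on the log2(FPKM + 1) scale, a scale that understates changes of low genes. At that rule 15.6% of all transcripts were called, and 6.04% of all transcripts were called higher in MASCs. The median difference of the 10 genes was 0.59, beside -0.0048 over all transcripts. Without the 4 lines high in fibroblast markers the number called was again 3 and the median -0.03. The difference was above 0 for 8 genes and below 0 for Nnat and Igf2r. The lowest MASC line lay above the highest SSC line for Snrpn, Impact, Peg10 and Plagl1, and for 9.92% of all transcripts.

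**Figure D1:**
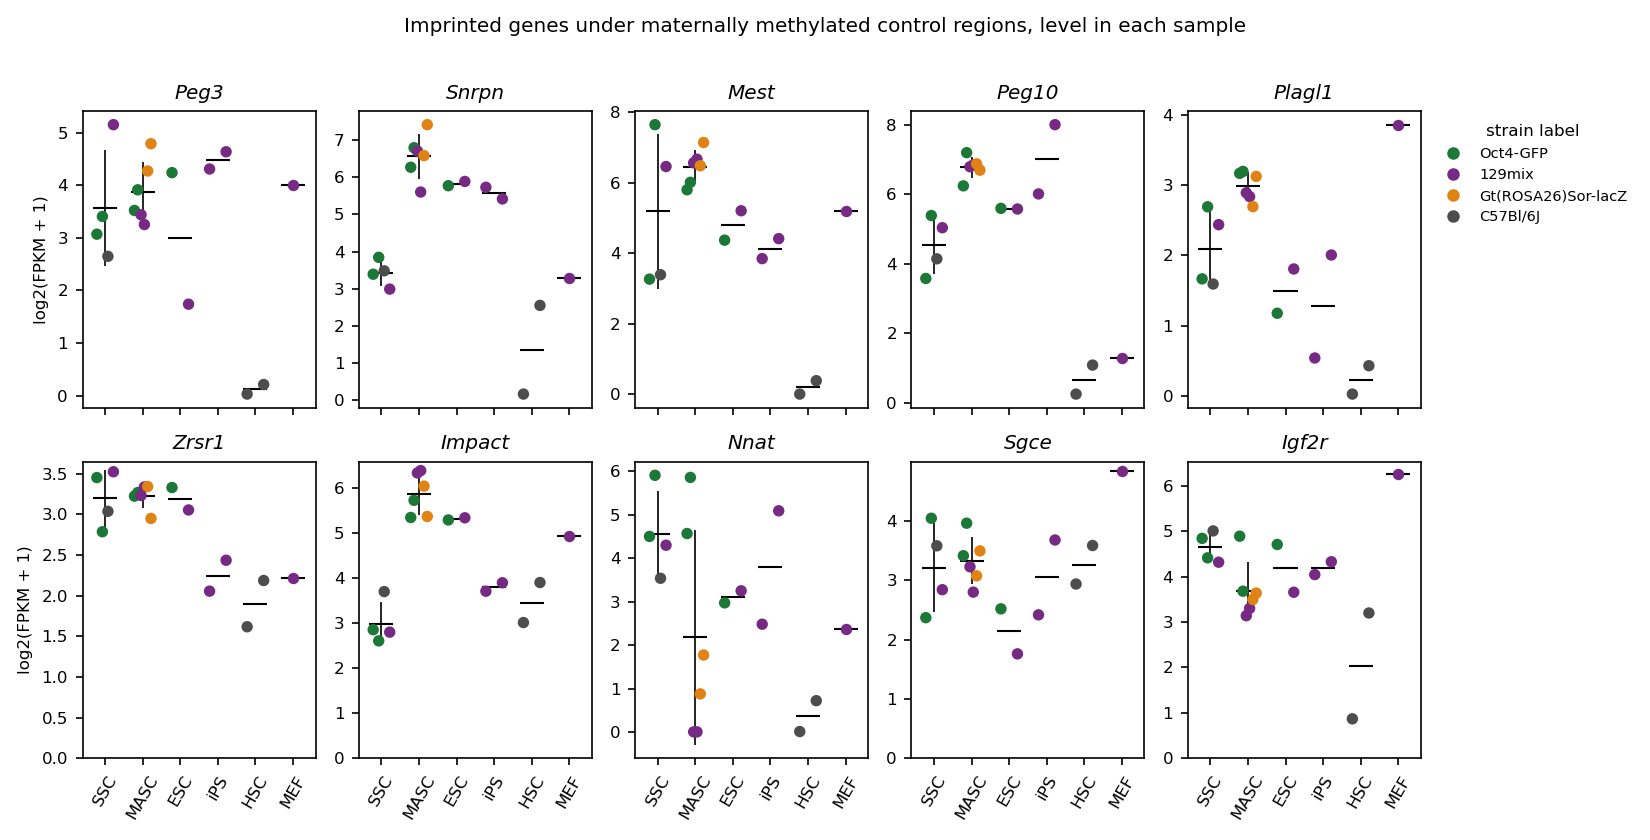
Level of the 10 genes on the log2(FPKM + 1) scale in each line, by cell type, coloured by strain, with the mean as a line and the SD as a bar where a group has more than 2 lines. The SSC and MASC lines do not overlap for Snrpn, Impact, Peg10 and Plagl1, while Nnat spreads from 0.00782 to 56.95 FPKM among MASCs.

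Genes of RNA splicing differed from each other. Snrpn encodes SmN, a core protein of the spliceosome, and its promoter (printed above, gene at chr7:67127388-67150042) lies at the imprinting centre of the Prader-Willi region. Its level was 9.47, 13.3, 10.1 and 6.93 FPKM in SSC lines 1 to 4, and its lowest, median and highest MASC values were 47.6, 99.3 and 170.2 FPKM. Every MASC line was above every SSC line, and the means were 9.97 ± 2.64 FPKM (SD, n = 4) and 100.5 ± 40.9 FPKM (SD, n = 6). The log2 difference was 3.14 (SE 0.31, adjusted p = 5.5e-05, limma). ESCs had 53.7 and 58.3 FPKM and iPS cells 52.1 and 41.7 FPKM. Both were likewise higher than SSCs, by 2.41 (SE 0.42, adjusted p = 0.00276) for ESCs and 2.15 (SE 0.40, adjusted p = 0.00256) for iPS cells on the log2 scale. Without the 4 lines high in fibroblast markers the ESC difference was 2.47 (adjusted p = 0.0889), with 1 ESC line left and its spread taken from the other groups. The ESC and iPS values lay low in the MASC range or under it, with differences from MASCs of -0.73 (SE 0.39, adjusted p = 1) and -0.99 (SE 0.38, adjusted p = 0.256) that did not pass. MEFs had 8.76 FPKM and HSCs 0.115 and 4.85 FPKM, so the high level was found in the MASC, ESC and iPS lines.

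Zrsr1, a retrogene for a factor of 3′ splice site recognition that lies inside an intron of Commd1 (chr11:22872005-22876496, plus strand), had nearly the same level in SSCs and MASCs. The SSC lines had 9.95, 5.9, 7.21 and 10.5 FPKM, and the MASC lines 6.73 at the lowest, 8.52 at the median and 9.15 at the highest. The groups overlapped fully, and the log2 difference was 0.03 (SE 0.15, adjusted p = 0.994), a sign that turned with samples scaled to equal totals. Among MASCs its SD of 0.144 on the log2 scale was at the 11.7th percentile of 15554 transcripts with a mean of at least 1 FPKM. The iPS lines were lower than every line of the other 3 types, at 3.16 and 4.41 FPKM beside 9.06 and 7.31 FPKM in ESCs. The log2 differences of iPS cells were -0.95 from SSCs (SE 0.20, adjusted p = 0.0057), -0.98 from MASCs (SE 0.19, adjusted p = 0.0288) and -0.95 from ESCs (SE 0.23, adjusted p = 0.159), the first pair past the adjusted threshold but all short of the size a call needs. The first was called without SSC line 2 (-1.09), SSC line 3 (-1.01) or iPS line 2 (-1.15, with 1 iPS line left), and the second without MASC line 6 (-1.04).

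Impact rose in MASCs and not to the same level in iPS cells. The gene encodes an inhibitor of GCN2, the kinase that slows translation when amino acids are short. SSC lines 1 to 4 had 6.25, 5.1, 12.03 and 5.98 FPKM, and MASCs 39.8 at the lowest, 58.7 at the median and 83.1 at the highest. The groups were far apart, with means of 7.34 ± 3.17 FPKM (SD, n = 4) and 60.2 ± 19.1 FPKM (SD, n = 6) and a log2 difference of 2.88 (SE 0.28, adjusted p = 4.93e-05). ESCs, at 38.3 and 39.6 FPKM, were also higher than SSCs (2.33, SE 0.37, adjusted p = 0.00187). The iPS lines had 12.1 and 13.9 FPKM, just above the highest SSC line, and their difference from SSCs of 0.81 did not pass (SE 0.36, adjusted p = 0.13), but did without SSC line 3 (1.05, adjusted p = 0.0357). They were lower than MASCs by a log2 difference of -2.07 (SE 0.34, adjusted p = 0.013), and by -1.97 (adjusted p = 0.118) without iPS line 1 and -2.16 (adjusted p = 0.0899) without iPS line 2. These last fits have 1 iPS line, with its spread taken from the other groups, and a similar difference. From ESCs they differed by -1.51 (SE 0.41, adjusted p = 0.211), which did not pass. MEFs had 29.6 FPKM, and the MEF level times the fibroblast share of SSC line 3 gives 4.92 of its 12.03 FPKM; with that amount subtracted from each line the MASC minus SSC difference was 3.19 (adjusted p = 1.94e-05).

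Peg10 and Sgce are read away from each other across the 101 bases printed above, yet their levels moved apart. Peg10, a gene derived from a retrotransposon and needed for the placenta (chr6:4697306-4710516), had 10.9, 40.8, 16.6 and 31.8 FPKM in SSCs and 74.6, 112 and 146 FPKM as the lowest, median and highest MASC values. No MASC line fell into the SSC range, and the log2 difference was 2.24 (SE 0.33, adjusted p = 0.000698). The ESC lines had 47.3 and 46.6 FPKM and did not pass against SSCs (1.05, SE 0.45, adjusted p = 0.135, and 1.33, adjusted p = 0.0402, without SSC line 2) or MASCs (-1.19, SE 0.42, adjusted p = 1). The iPS lines had 63.4 and 255 FPKM, of which the second was the highest value of all lines. Their difference from SSCs was 2.47 (SE 0.57, adjusted p = 0.00862), but it was 1.48 (adjusted p = 0.127) without iPS line 2, which leaves 1 iPS line, 2.2 (adjusted p = 0.0794) with a strain block and 1.79 (adjusted p = 0.0691) without the 4 lines high in fibroblast markers.

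Sgce encodes epsilon-sarcoglycan, a membrane protein of the dystrophin complex (chr6:4624350-4697204). It had 4.17, 15.5, 10.97 and 6.17 FPKM in SSCs and 5.97, 9.01 and 14.6 FPKM as the lowest, median and highest MASC values. The groups overlapped, and the log2 difference of 0.12 did not pass (SE 0.35, adjusted p = 0.894) and turned in sign under another scaling. The 2 genes had a Pearson r of 0.354 over the 14 SSC, MASC, ESC and iPS lines, where Snrpn and Impact had 0.838 and Snrpn and Peg10 0.755; these describe lines that share cell types and feeders. MEFs had 27.7 FPKM of Sgce and 1.45 FPKM of Peg10. The MEF level times the fibroblast share of MASC line 1 gives 5.14 of its 9.66 FPKM of Sgce.

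**Figure D2:**
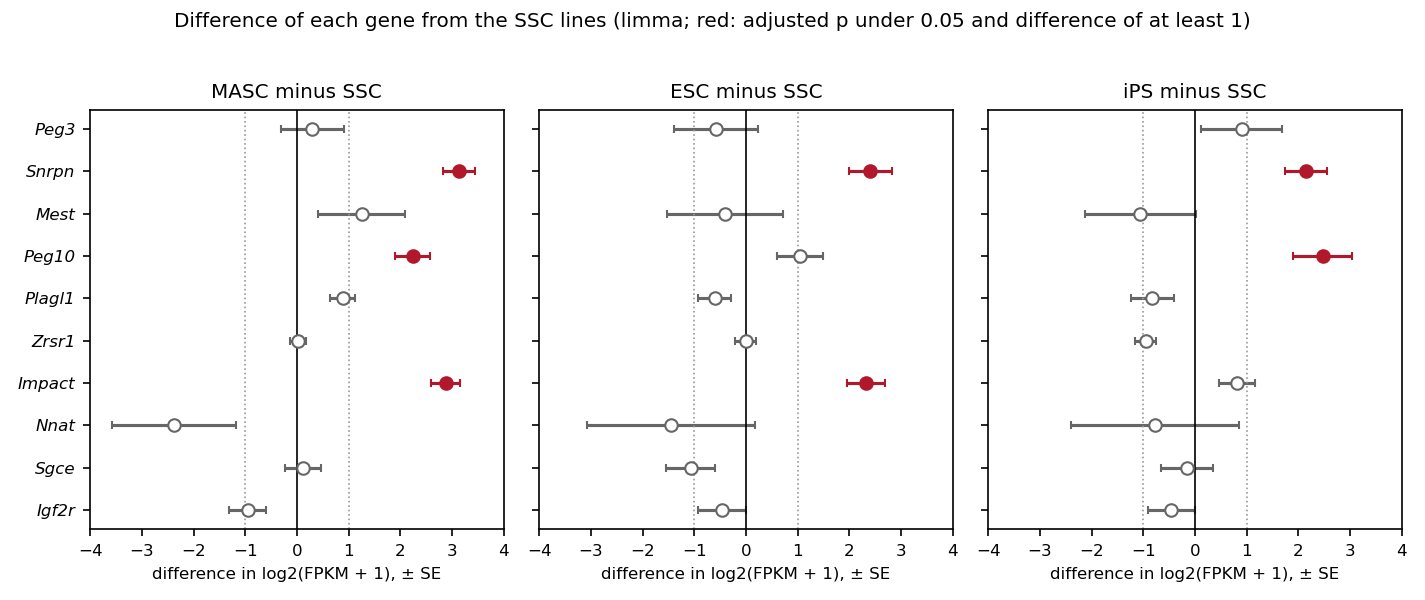
Difference from SSCs of each gene in MASCs, ESCs and iPS cells, in log2(FPKM + 1) units with the SE as a bar; filled red points are called and dotted lines mark 1 and -1. Snrpn was called in all 3, Impact in MASCs and ESCs, and Peg10 in MASCs and iPS cells, the last not with a strain block.

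Neither zinc-finger gene was called. Plagl1, a transcription factor that restrains the cell cycle and regulates other imprinted genes (chr10:12810594-12851501, plus strand), had 2.18, 5.46, 2.02 and 4.42 FPKM in SSCs and 5.47, 7.07 and 8.15 FPKM as the lowest, median and highest MASC values. The lowest MASC line was barely above the highest SSC line. The log2 difference was 0.89 (SE 0.24, adjusted p = 0.0187), under the size a call needs, and it was called at 1.08 without SSC line 2 and at 1.0 without SSC line 4. ESCs had 1.26 and 2.5 FPKM and iPS cells 0.457 and 3.02 FPKM, all below every MASC line. Their differences from MASCs were -1.49 (SE 0.30, adjusted p = 0.532) and -1.71 (SE 0.39, adjusted p = 0.0537), and neither passed. The iPS difference was called under some alternatives, such as quantile normalization (-1.70, adjusted p = 0.0455) and 17 samples in 1 fit (-1.71, adjusted p = 0.0435). The difference between iPS cells and SSCs was -0.82 (SE 0.41, adjusted p = 0.187). Without iPS line 2 the iPS differences were -2.44 from MASCs (adjusted p = 0.0287) and -1.55 from SSCs (adjusted p = 0.0319), and both were called, with 1 iPS line left and its spread taken from the other groups. MEFs had 13.51 FPKM, and the MEF level times the fibroblast share gives 2.24 FPKM for SSC line 3, as much as the 2.02 FPKM measured there. Without the 4 lines high in fibroblast markers the MASC minus SSC difference of Plagl1 was 0.38 (adjusted p = 0.154).

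Peg3, a zinc-finger protein known from studies of growth and maternal behaviour (chr7:6658671-6683130, minus strand), varied from line to line within each type. SSC lines 1 to 4 had 7.41, 9.63, 5.28 and 34.7 FPKM, and MASCs 8.55, 12.3 and 26.7 FPKM at the lowest, median and highest. The types overlapped, and the log2 difference of 0.30 did not pass (SE 0.61, adjusted p = 0.811) and turned in sign with samples scaled to equal totals and with blocks by replicate number or strain. ESC line 1 had 17.9 FPKM and ESC line 2 had 2.34 FPKM, a gap of 7.67-fold that was at the 98.6th percentile of 15181 transcripts. The iPS lines had 18.9 and 24.0 FPKM. The antisense transcript Peg3os starts beside Peg3, had 57.4 FPKM in SSC line 4 and 4.64 in ESC line 2, and had the highest correlation with Peg3 of 13646 genes (r = 0.992 over the 17 samples). Strand is not stated to be kept in these libraries, so reads of the overlapping stretch cannot be told apart.

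Mest did not pass the test between SSCs and MASCs, and its SSC lines were far apart. It encodes a hydrolase-fold protein of mesoderm (chr6:30688050-30698466), and its promoter is printed above. SSC lines 1 to 4 had 8.61, 199.8, 9.48 and 87.1 FPKM, and MASCs had 54.8, 91.1 and 140.2 FPKM at the lowest, median and highest. Lines 2 and 4 lay within or above the MASC range and lines 1 and 3 far below it. The SSC lines differed by up to 23.2-fold, an SD of 2.21 on the log2 scale that was at the 98.5th percentile of 16606 transcripts, and the MASC minus SSC difference was 1.26 (SE 0.84, adjusted p = 0.315). The low SSC lines 1 and 3 were those with more fibroblast marker RNA, MEFs had 35.6 FPKM, and the part of fibroblast RNA in the low values was not tested. Without the 4 lines high in fibroblast markers the difference was -0.48. ESCs had 19.7 and 35.9 FPKM and iPS cells 13.4 and 20.3 FPKM, all under the lowest MASC line. The differences from MASCs were -1.66 (SE 1.06) for ESCs and -2.32 (SE 1.01, adjusted p = 0.348) for iPS cells, and neither passed, though the second was -2.44 (adjusted p = 0.0355) without the 4 lines high in fibroblast markers.

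Summed over its 3 RefSeq transcripts, Mest had 12.1, 251, 12.2 and 116 FPKM in SSCs. The make-up of that sum is described next. The transcript NM_001252292 gave 28.7, 19.5, 22.0 and 24.7% of the sum in SSC lines 1 to 4, in lines of low and high Mest alike, and 7.1 to 11.1% in the 6 MASC lines. The means were 23.8 ± 3.96% (SD, n = 4) and 9.25 ± 1.34% (SD, n = 6). This transcript was chosen after its values were seen, so no test is given. The share was 14.5 and 8.6% in ESCs, 15.0 and 6.6% in iPS cells and 2.8% in MEFs. Copg2, a coat protein gene that overlaps the end of Mest on the other strand, had 123 FPKM in SSC line 2 and 25.7 to 51.9 in the other SSC lines.

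**Figure D3:**
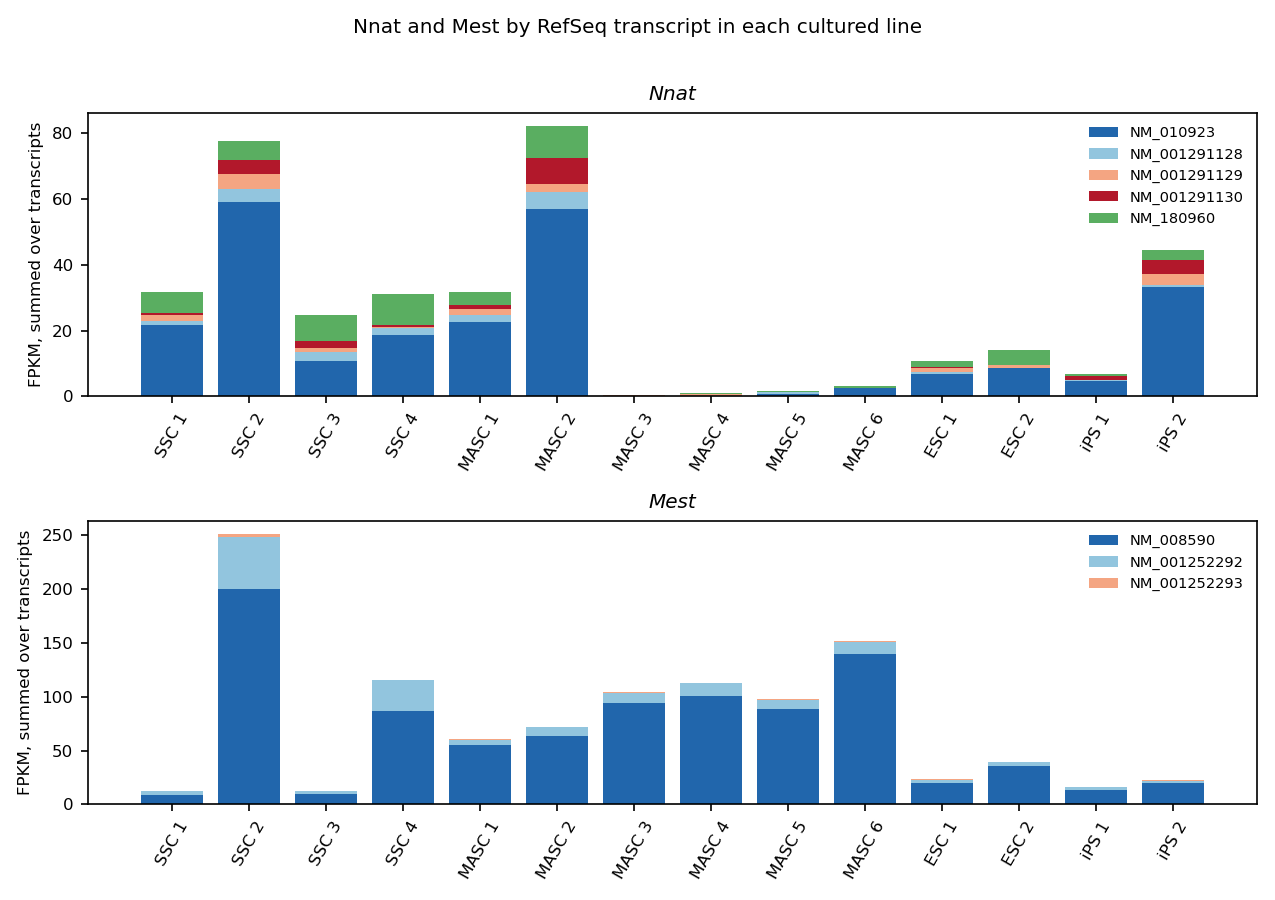
Stacked FPKM of the RefSeq transcripts of Nnat and Mest in the 14 SSC, MASC, ESC and iPS lines. NM_001252292 takes a larger share of Mest in SSCs than in MASCs, and the Nnat bars of MASC lines 3 to 6 sum to 0.534 to 3.07 FPKM.

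Nnat varied among the MASC lines more than any other member, and its values followed the strain labels without passing the test between strains. MASC lines of a strain may share 1 derivation, so strain and clone of origin cannot be told apart. Neuronatin is a small membrane protein of the endoplasmic reticulum known from brain and fat, and its gene lies inside Blcap (chr2:157385814-157388261). SSC lines 1 to 4 had 21.6, 58.9, 10.6 and 18.7 FPKM. The Oct4-GFP MASC lines had 22.7 and 56.95 FPKM, the 129mix lines 0.00893 and 0.00782 FPKM, and the Gt(ROSA26)Sor-lacZ lines 0.846 and 2.43 FPKM. Thus 2 MASC lines were within the SSC range and 4 were below every SSC line. Summed over its 5 transcripts, Nnat was 24.8 to 77.7 FPKM in SSCs, 31.6 and 81.9 FPKM in the Oct4-GFP MASC lines and 0.534, 1.05, 1.63 and 3.07 FPKM in MASC lines 3 to 6, so the low lines were low in every annotated form together. The MEF level times the fibroblast share of MASC line 1 gives 0.771 of its 22.7 FPKM.

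The MASC minus SSC difference of Nnat was -2.38 (SE 1.21, adjusted p = 0.178) and did not pass over the 6 lines. Without MASC line 2 it was -3.11 (adjusted p = 0.0379). Within strains it was 0.01 for Oct4-GFP and -4.29 for 129mix, where 1 SSC line, assumed to vary like the others, stands against 2 MASC lines, and the difference of these effects was 4.30 (SE 1.14, adjusted p = 0.358). Among MASCs alone, Oct4-GFP was above 129mix by 5.20 (SE 0.59, adjusted p = 0.0535) and above Gt(ROSA26)Sor-lacZ by 3.88 (SE 0.59, adjusted p = 0.0825), each 2 lines against 2. The first was called under 5 of the alternatives, such as a filter on low FPKM (adjusted p = 0.0119), and was 2.61 (adjusted p = 0.397) when cell type and strain were fitted over the SSC, MASC and ESC lines. No member was called between strains, where 1.11%, 1.00% and 0.00612% of transcripts were called for Oct4-GFP minus 129mix, Oct4-GFP minus Gt(ROSA26)Sor-lacZ and Gt(ROSA26)Sor-lacZ minus 129mix. By limma's unadjusted p under 0.05, 1, 3 and 1 of the 10 genes passed, beside 21.7%, 21% and 5.89% of all transcripts. ESCs had 6.86 and 8.53 FPKM, in the order Oct4-GFP and 129mix, and iPS cells 4.6 and 33.1 FPKM. The iPS pair, both 129mix, was at the 98.9th percentile of 15110 transcripts for the gap between its lines. Blcap, on the other strand, was 27.4 to 37.6 FPKM in SSCs and 12.9 to 17.8 FPKM in MASCs.

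Igf2r, the member read from the maternal copy, was lower in 5 of the 6 MASC lines than in any SSC line, and did not pass the test over all lines. The receptor sorts lysosomal enzymes and takes IGF2 out of circulation (chr17:12875272-12962572, minus strand). SSC lines 1 to 4 had 27.7, 20.3, 31.1 and 18.9 FPKM, and MASCs 7.81, 10.9 and 28.6 FPKM at the lowest, median and highest. The MASC line within the SSC range was line 1. The log2 difference was -0.95 (SE 0.35, adjusted p = 0.0669), and without MASC line 1 it was -1.20 (adjusted p = 0.00564), a call. ESCs had 25.1 and 11.6 FPKM and iPS cells 15.5 and 19.1 FPKM.

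MEFs had 75.5 FPKM of Igf2r, more than any other sample, and the 4 lines with the most fibroblast marker RNA were the 4 of the SSC, MASC, ESC and iPS lines with the most Igf2r. The MEF level times the fibroblast share, which varies with the marker, gives 14.01 of 28.6 FPKM in MASC line 1, 12.5 of 31.1 in SSC line 3, 5.36 of 27.7 in SSC line 1 and 5.16 of 25.1 in ESC line 1. With that amount subtracted from each line, Igf2r differed between MASCs and SSCs by -0.92 (adjusted p = 0.00729), and without the 4 lines by -0.915 (adjusted p = 0.0126), both near the difference of all lines. Airn, whose transcription is known to silence Igf2r in cis, was 0.145 to 0.828 FPKM in SSCs and 0.15 to 1.63 FPKM in MASCs.

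**Figure D4:**
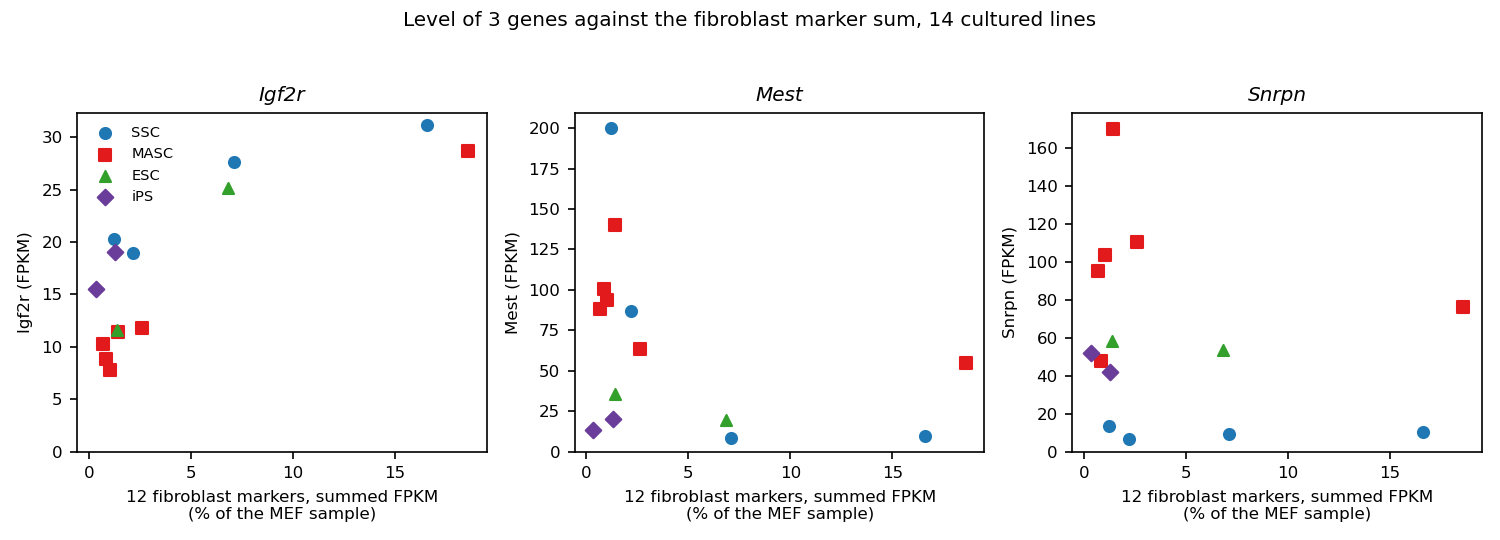
FPKM of Igf2r, Mest and Snrpn against the summed level of 12 fibroblast markers as a percentage of MEFs in the 14 SSC, MASC, ESC and iPS lines. MASC line 1, at 18.6%, has 28.6 FPKM of Igf2r, while Snrpn separates SSCs from the rest at low and high percentages alike.

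For the 3 called genes the SSC and MASC values have no overlap, so a split by strain could only return the same direction. The split therefore shows sizes and does not test the direction. MASC minus SSC was 2.92 within Oct4-GFP and 3.17 within 129mix for Snrpn, 2.81 (adjusted p = 0.0113) and 3.57 (adjusted p = 0.0116) for Impact, and 2.24 and 1.78 for Peg10, of which Impact alone passed at this number of lines. Peg3 was 0.48 higher within Oct4-GFP and differed by -1.81 (adjusted p = 0.0417) within 129mix, where its lone SSC line is the high one. No member had an adjusted p under 0.05 for the difference between the strains' effects, and 128 of 32661 transcripts did. Between strains of MASCs, Igf2r was 1.06 higher in Oct4-GFP than in 129mix (SE 0.47, adjusted p = 0.32) and Peg3 1.19 higher in Gt(ROSA26)Sor-lacZ than in 129mix (SE 0.26, adjusted p = 0.685), and neither passed. The Oct4-GFP lines include MASC line 1, which was high in fibroblast markers. With the fibroblast level subtracted the Igf2r difference was 0.60.

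In the other comparisons few members were called. Against SSCs, 2 members were called in ESCs (Snrpn and Impact) with 13.7% of all transcripts, and 2 in iPS cells (Snrpn and Peg10) with 15.5%. These comparisons share the SSC lines with that of MASCs. ESC minus MASC had 0 called members with 0.0184% of transcripts called, and 3 members at an unadjusted p under 0.05 by limma, beside 2.92% of transcripts. iPS minus MASC had 1 (Impact) with 0.707%, and iPS minus ESC 0 with 0.138%, and there 2 members were at an unadjusted p under 0.05 beside 8.57% of transcripts. The means of log2(FPKM + 1) of the 4 types stood in the order MASC, ESC, iPS and SSC for Snrpn and Impact, in the order MASC, SSC, ESC and iPS for Mest, Plagl1 and Zrsr1, and in the order SSC, iPS, ESC and MASC for Nnat and Igf2r. The order was iPS, MASC, SSC and ESC for Peg3, iPS, MASC, ESC and SSC for Peg10, and MASC, SSC, iPS and ESC for Sgce. Of neighbours in these orders only iPS and SSC for Snrpn differed by a call.

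In HSCs the members were low, and the 2 cultures differed. HSC line 1 had 0.019 FPKM of Peg3, 0.115 of Snrpn and 0.823 of Igf2r, and HSC line 2 had 0.156, 4.85 and 8.18 FPKM. Fibroblast markers were 0.116% and 7.49% of MEFs in these lines. Impact, at 7.09 and 13.99 FPKM, and Sgce, at 6.66 and 11.01 FPKM, lay within or near the SSC range.

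The members' neighbours and the genes for proteins that handle imprints were taken from lists built on their known roles. The lists were made with earlier results of these data known, so their counts are a description. Over all transcripts, 15.6% were called between MASCs and SSCs, and 6.04% were called higher in MASCs. Of 49 other genes of maternally methylated domains, 48 were found, and 2 were called higher and 5 lower in MASCs than in SSCs, with a median difference of 0.072. With samples scaled to equal totals these counts were 0 and 6, with a pseudocount of 0.1 they were 6 and 8, and without the 4 lines high in fibroblast markers 1 and 3. Inpp5f, an inositol phosphatase, fell from 14.9 to 39.4 FPKM in SSCs to 3.86 to 7.32 FPKM in MASCs (log2 difference -2.17, SE 0.25, adjusted p = 0.000138). Herc3, a ubiquitin ligase, fell by 1.61 (SE 0.20, adjusted p = 0.00025), and Ndn, a growth-restraining protein of the Prader-Willi region beside Snrpn, fell by 1.20 (SE 0.30, adjusted p = 0.0128). Ndn thus moved opposite to Snrpn, but MEFs had 65.0 FPKM of it, and without the 4 lines high in fibroblast markers its difference was -0.99 (adjusted p = 0.143). Cdkn1c, a cell cycle inhibitor, had -2.17 (SE 0.70, adjusted p = 0.0406) with MASC line 6 at 37.4 FPKM and the other MASC lines at 2.08 to 6.02 FPKM. Its adjusted p was 0.0567 to 0.0946 without any 1 of the 4 SSC lines or of MASC lines 1 to 5. The other calls, outside the rule for named genes, were Cd81 (1.18) and Ago2 (1.05) higher and Nap1l4 (-1.07) lower; Ago2 was at 0.84 without SSC line 1 and 0.99 without MASC line 4, and so not called. Of 11 genes of paternally methylated domains, 0 were called in MASC minus SSC by limma, beside 15.6% of all transcripts.

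Of 20 genes for proteins that set, keep or remove methylation at imprints, 7 were called higher and 4 lower in MASCs than in SSCs. The values are RNA levels, and protein was not measured. Each gene was read from 1 transcript, chosen as for the members, so a low value may not hold for its other transcripts. The median difference was 0.507, and without the 4 lines high in fibroblast markers the counts were 7 and 3. Over all transcripts 15.6% were called in either direction and 6.04% higher in MASCs. Zfp57, whose hexamer was searched above, had 4.62, 5.5, 5.51 and 3.22 FPKM in SSCs and 67.9 to 119 FPKM in MASCs. The difference was 4.08 (SE 0.23, adjusted p = 1.91e-06), and its partner Trim28 rose by 1.56 (SE 0.15, adjusted p = 5.21e-05). Dnmt3l, the cofactor of the de novo methyltransferases, was at most 0.569 FPKM in SSCs and 53.9 to 189 FPKM in MASCs (6.82, SE 0.36, adjusted p = 1.42e-06). Dnmt3b rose by 4.02 (SE 0.35, adjusted p = 2.75e-05) and Tet1, which oxidises methylcytosine, by 4.32 (SE 0.42, adjusted p = 4.97e-05). Kdm1b, a histone demethylase needed for imprints in the egg, went the other way, from 15.6 to 24.9 FPKM in SSCs to 2.32 to 3.96 FPKM in MASCs (-2.24, SE 0.15, adjusted p = 6.27e-06). Trim28 and Kdm1b were named after their values were seen. In ESCs and iPS cells this list had 7 higher and 3 lower, and 7 higher and 4 lower, than in SSCs. Over all transcripts 13.7% and 15.5% were called in these comparisons. These counts share the SSC lines.

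**Figure D5:**
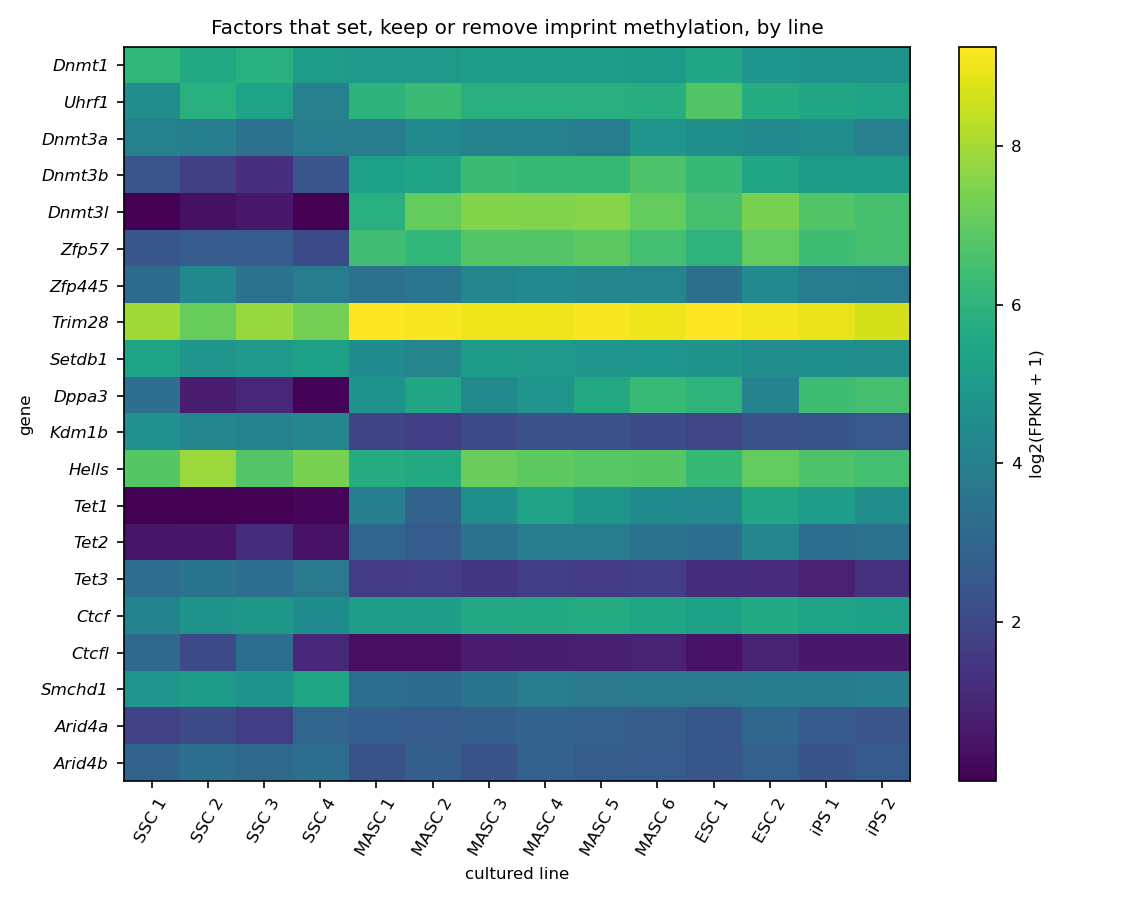
RNA level of the genes for 20 proteins that set, keep or remove methylation at imprints, as log2(FPKM + 1), in the 14 SSC, MASC, ESC and iPS lines. Each gene is shown by 1 transcript. Zfp57, Dnmt3l, Dnmt3b and Tet1 are low in the 4 SSC lines and high in the other 10, and Kdm1b is the reverse.

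Among 15 partners and relatives of the members, 0 were called higher and 4 lower in MASCs, with a median difference of -0.272. Over all transcripts 15.6% were called in either direction. Igf1r, the receptor through which IGF2 signals, fell from 9.36 to 21.7 FPKM in SSCs to 1.62 to 4.1 FPKM in MASCs (-2.11, SE 0.27, adjusted p = 0.000268). Plagl2 and Plag1, relatives of Plagl1, differed by -1.59 (SE 0.14, adjusted p = 2.91e-05) and -1.22 (SE 0.15, adjusted p = 0.000264). Zrsr2, the relative of Zrsr1, differed by -1.54 (SE 0.14, adjusted p = 3.02e-05) where Zrsr1 did not pass.

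The genes whose log2 level followed each member most closely over the 17 samples, among 13646 genes, are given as a description of samples that share cell types. For Snrpn they were Rbpms2 (r = 0.961) and Snurf (r = 0.951), which shares its transcript with Snrpn, and for Impact Tbc1d9 (0.958) and Etv1 (0.918). For Peg10 they were Pard6b (0.96) and Bex1 (0.958), for Mest Cxadr (0.919) and Samd8 (0.914), and for Igf2r Mprip (0.944) and Epb4.1l3 (0.939). Plagl1 was followed by Fst (0.906) and Glis2 (0.881), Zrsr1 by Usp36 (0.933) and AI846148 (0.908), Peg3 after Peg3os by Uaca (0.878), Sgce by Rcn2 (0.842) and Efnb1 (0.839), and Nnat, the least closely, by C130074G19Rik (0.821) and Egfl7 (0.809). Snrpn and Snurf overlap, so reads may be split between them, and Snurf was 0.457 to 0.922 FPKM in SSCs and 2.89 to 10.3 FPKM in MASCs.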

How the data were processed

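RNA of 17 mouse samples was analysed. The FPKM values were deposited by the authors, who per the labels and methods aligned reads to mm9 with TopHat2 2.0.11, left out duplicate and multiply mapping reads, and estimated transcript levels with Cufflinks, using upper-quartile and GC normalization. The coverage signal deposited beside them by the authors served to describe depth. Each table holds 33262 rows, of which 32661 are RefSeq transcripts; 601 further loci were not used. Because the unit is not a count, log2(FPKM + 1) was tested with limma 3.58.1 (R 4.3.3; lmFit, contrasts, eBayes), 12 SSC, MASC and ESC lines in 1 fit and 14 lines where iPS cells entered, with Benjamini-Hochberg adjustment over all transcripts and no filter on low values. The limma steps were tested on simulated data. Tables were handled with pandas 2.3.3 and scipy 1.17.1. No pair of samples held identical values (highest r = 0.984).

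The members and gene lists were chosen with earlier results of these data known. Text names the members, the up to 4 genes of each list called in MASC minus SSC with the largest difference, any gene on which a result on a member turns, and the 2 genes most correlated with each member. Strand was assigned to 28961 of 32661 transcripts from an mm9 annotation, and promoter sequence was read from mm9. Alternatives were the pseudocount, a filter, scaling, thresholds, blocks by replicate number and strain, other sets of samples, and leaving out each line; subtracting the fibroblast level and leaving out the 4 lines high in fibroblast markers were chosen after seeing the data. The estimates depend on how Cufflinks shares reads between overlapping transcripts.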

Additional observations from a re-analysis of the deposited data

Results flagged for a closer look

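Among the 6 MASC lines, Zrsr1 of line 6 stood apart from the rest at 6.73 FPKM, where the other lines had 8.35 to 9.15 FPKM. Igf2r of MASC line 1 stood apart at 28.6 FPKM, where the others had 7.81 to 11.8 FPKM. In both the gap to the nearest line exceeded Dixon's critical share of the group's range, which chance alone exceeds in about 1 of 20 groups. All 10 genes were searched in both SSCs and MASCs, so some such gaps are expected by chance alone. MASC line 1 also had the highest fibroblast marker share of the MASC lines, at 18.6% of MEFs, where the MEF level times that share gives 14.01 FPKM of Igf2r.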

How the results depend on the processing

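In MASC minus SSC, Snrpn, Peg10 and Impact kept their call in all 27 alternatives, with log2 differences of 2.84 to 3.33, 1.67 to 2.52 and 2.59 to 3.27. Small differences changed sign: with equal totals Peg3 was -0.00658, Zrsr1 -0.266 and Sgce -0.175; with a strain block Peg3 was -0.319 and Zrsr1 -0.00179; without the 4 lines high in fibroblast markers Peg3 was -0.347, Mest -0.48 and Sgce -0.131; leaving out single lines gave Sgce -0.16 (SSC line 1), -0.00306 (SSC line 4) and -0.00696 (MASC line 2), Zrsr1 -0.112 (SSC line 2) and -0.0285 (SSC line 3), and Peg3 -0.0119 (SSC line 3), with highs of 0.824 for Peg3, 0.134 for Zrsr1 and 0.398 for Sgce. The cause was not tested. Plagl1 was called at 1.08 with a pseudocount of 0.1, 1.18 after quantile normalization and 1.08 after shifting to equal medians, which moved the median of all transcripts to 0.184. Igf2r was called at -1.26 with equal totals.

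ESC minus SSC had 1 called member without the 4 lines, from fewer samples. iPS minus SSC had 2 to 4 when single lines were left out. iPS minus MASC had 0 to 2 when single lines were left out, and 2 under a pseudocount of 0.1, the filter, quantile normalization, equal totals, equal medians, a log2 difference of 2 with raw p, 17 samples, summed transcripts, and without the 4 lines. Beside Impact, the second of these iPS minus MASC calls was Zrsr1 with the pseudocount and equal totals. It was Mest with raw p and without the 4 lines. It was Plagl1 with the filter, quantile normalization, equal medians, 17 samples and summed transcripts. Oct4-GFP minus 129mix had 1 (Nnat) under a pseudocount of 0.1, the filter, quantile normalization, equal totals and summed transcripts, and Oct4-GFP minus Gt(ROSA26)Sor-lacZ had 1 under the filter.

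Replicate numbers are shared by the groups but did not pair the lines: deviations of equal numbers correlated at -0.225 to 0.185. With the replicate number as a block, 3831 in place of 5109 transcripts were called in MASC minus SSC and 2604 in place of 4479 in ESC minus SSC, Peg3 was -0.0378, and iPS minus MASC had 0 called members (Impact -1.81, adjusted p = 0.0971).

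Over all transcripts, 1311 were called in MASC minus SSC at a log2 difference of 2 with raw p, 1262 with adjusted p, and 7577 with a pseudocount of 0.1. Calls higher and lower were 1972 and 3137, against 1348 and 4508 with equal totals, 2340 and 2427 after quantile normalization and 2745 and 2422 with equal medians. The number of reads is unknown, which limits what levels near 0 FPKM can show. For Nnat in the 129mix MASC lines 3 and 4, the bounds given by Cufflinks ran from 0 to 0.0485 and from 0 to 0.0465 FPKM. These 2 levels therefore cannot be told from 0. Groups of 2 lines limit every ESC and iPS result.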

Other observations

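Further imprinted genes set the 2 Gt(ROSA26)Sor-lacZ MASC lines apart from the other 4 MASC lines. They were picked after their values were seen and carry no test. Grb10, a growth-restraining adaptor protein, had 49.8 and 47.0 FPKM in these lines and 2.93 to 12.3 FPKM in the others. Peg13, a noncoding RNA of a maternally methylated region, had 0.0745 and 0.0684 FPKM against 1.08 to 1.99 FPKM. Nap1l5 had 0.0133 and 0.155 FPKM against 0.534 to 1.08 FPKM, and Zdbf2 0.768 and 1.77 FPKM against 4.19 to 11.3 FPKM. Peg13 and Nap1l5 were under 2 FPKM in all 6 MASC lines. No SSC line of the Gt(ROSA26)Sor-lacZ strain was analysed here, and its 2 MASC lines may share 1 derivation.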
